A study of Mus musculus with 2 samples.

Results

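The genes described here encode the proteins of the cytosolic ribosome, measured in T cells from mouse spleen. Members were chosen by symbol alone: Rpl or Rps followed by a digit, together with Rplp0, Rplp1, Rplp2 and Rpsa, leaving out pseudogene symbols and the Rps6k kinases. The rule found 86 of the 19837 genes in the table: 43 large-subunit proteins, 31 small-subunit proteins, 3 proteins of the stalk, 8 paralogs or retrogenes, and Rps19bp1, which encodes an Rps19-binding protein and not a ribosomal protein. Fau, which encodes a ribosomal protein fused to a ubiquitin-like protein, and Rack1 fall outside the name rule and are given beside the members.

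The donors were female C57BL/6 mice, the strain being labelled C57/BL6N. There were 3 groups of 3 mice: a saline group, labelled 0 h, and groups injected with 6 mg/kg remimazolam and sampled 4 h or 8 h later. Remimazolam is a short-acting benzodiazepine sedative. No age, genotype change or other agent is given in the labels, and no saline group was labelled 4 h or 8 h, so treatment and time after injection cannot be told apart. Cells of the 3 mice in a group carried 1 sample tag, an antibody-borne barcode, and the 3 pools were captured together on the BD Rhapsody platform, which counts molecules near the 3′ end of transcripts. Each treatment is therefore 1 pool, the spread between mice cannot be seen, and no comparison of treatments has a test or a replicate check. The labels describe the sorted cells as CD45+CD3+CD5+ in one place and as CD45+ in another.

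A ribosome joins a small subunit, which reads the messenger RNA, to a large subunit, which forms the peptide bond, and nearly every ribosomal protein is present in a single copy per ribosome. The stalk, made of Rplp0 with Rplp1 and Rplp2, recruits the GTPases that drive elongation. Messenger RNAs for ribosomal proteins are abundant in lymphocytes, and most begin with a C followed by a run of pyrimidines, the TOP motif, through which mTORC1 and Larp1 control their translation. Naive T cells keep these messenger RNAs as a large pool, and activation through the antigen receptor changes how many are translated.

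Start-site windows are shown because the pyrimidine run is the sequence feature by which this gene family is known. RefSeq promoters on GRCm38.p6 were matched to 66 of the 86 members. Each line gives 30 bases on the coding strand with the annotated start in the middle (position +1 is base 16). Capitals mark a run at the start that opens with C and continues in C or T for at least 5 bases. A run counted as at the start if it covered position +1 or opened up to 2 bases after it, as in Rpl12. The first 5 have such a run and the last 3 do not.
Rps24, chr14:24490663-24490692, plus strand: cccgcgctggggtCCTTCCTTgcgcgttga
Rps27, chr3:90213634-90213663, minus strand: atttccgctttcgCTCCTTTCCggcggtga
Rps27rt, chr9:114982725-114982754, minus strand: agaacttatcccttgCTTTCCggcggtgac
Rplp2, chr7:141447636-141447665, plus strand: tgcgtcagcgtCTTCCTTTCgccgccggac
Rpl12, chr2:32961697-32961726, plus strand: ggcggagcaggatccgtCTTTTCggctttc
Rpl5, chr5:107900513-107900542, plus strand: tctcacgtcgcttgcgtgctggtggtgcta
Rpl4, chr9:64173372-64173401, plus strand: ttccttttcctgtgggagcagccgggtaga
Rpl24, chr16:55966260-55966289, plus strand: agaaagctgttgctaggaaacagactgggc

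Such a run of at least 5 bases covered the annotated start, or opened up to 2 bases after it, in 24 of the 66 matched members (36.4%), against 11.4% of 27025 promoters of the same length. A run of at least 8 bases was found in 25.8% of members and 3.94% of all promoters. The annotated start can lie several bases from the start used in T cells, so the absence of a run here describes only these letters. CTTTC, searched on both strands within 15 bases of the start, was in 28.8% of members and 7.34% of promoters. Over the full 300 bases, both strands searched, CCGGAAG (an ETS-family motif) was in 37.9% of members and 9.12% of promoters, AAGATGGC (a YY1 motif) in 7.58% and 2.88%, and GGGCGG (an Sp1 motif) in 60.6% and 35.9%. TATAAA within 40 bases before the start, both strands searched, was found in 1 member, 1.52%, against 3.29% of promoters. CCGGAAG and AAGATGGC can overlap by AAG, and a match is only a description of the letters.

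The table held 49040075 molecules in 17299 putative cells. Cells called as multiplets by their tags (1063), without a tag call (60) or with another tag (2) were left out, as were cells failing the filters on gene number and mitochondrial share, which left 16123 cells. Of these, 15627 fell in T cell clusters: 5131 from the saline pool, 5248 from the 4 h pool and 5248 from the 8 h pool, with medians of 2536, 2514.5 and 2517 molecules per cell. The labelled cell type was checked on its markers: Trac was detected in 93.3% to 94.2% of these cells by pool, Cd3e in 81.1% to 82.1%, and Cd5, a marker of the sort, in 33.6% to 35.3%. B-like, myeloid-like and neutrophil-like clusters held 432, 42 and 22 cells.

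The 86 members made up 0.434% of the genes and gave 16.4% of the molecules of T cells. Members filled 28 of the 50 places and 55 of the 100 places with the most molecules. Small-subunit genes gave 8.04% of T cell molecules, large-subunit genes 7.32%, the 3 stalk genes 0.961% and the paralogs 0.102%. Levels are given as CPM, the molecules of a gene scaled to a common total for the same cells; each transcript is counted near its 3′ end, so no length scaling applies, but reads of members with near-identical copies elsewhere may be divided among them. For 45 of the 86 members, at least 50% of the 50-base stretches in the last 400 bases of the transcript also occur in another annotated gene. Only 1 annotated principal transcript per gene was used, and its end can differ from the end counted in T cells. The stretches were taken from a later GENCODE annotation release than the one used for the counts.

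The 10 most abundant members carried 25.1% of all member molecules. Rps24, a small-subunit protein mutated in some families with Diamond-Blackfan anaemia, stood at 4903 CPM in the saline pool, 4733 at 4 h and 4806 at 8 h. Rplp1 of the stalk followed at 4890, 4667 and 4781, and the zinc-finger protein gene Rps27 at 4738, 4594 and 4692. In these 3 genes the saline pool was the highest and the 4 h pool the lowest. Rpl17, which lines the peptide exit tunnel, was at 4097, 4081 and 4072 CPM (saline, 4 h and 8 h, in that order throughout). The small-subunit head protein gene Rps29 was at 4045, 3878 and 3965. Rps28, at the messenger RNA exit site, was at 4001, 3916 and 3963. Further down, Rps20 stood at 3635, 3528 and 3589, Rpl5, which with Rpl11 and 5S rRNA forms the particle that can bind Mdm2, at 3518, 3441 and 3489, and the X-linked Rps4x at 3390, 3351 and 3330. The saline pool had the highest value for each gene named here. For Rpl17 the counting intervals of the ratios to saline spanned 1 at both times (0.985 to 1.01 at 4 h and 0.982 to 1.01 at 8 h).

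**Figure D1:**
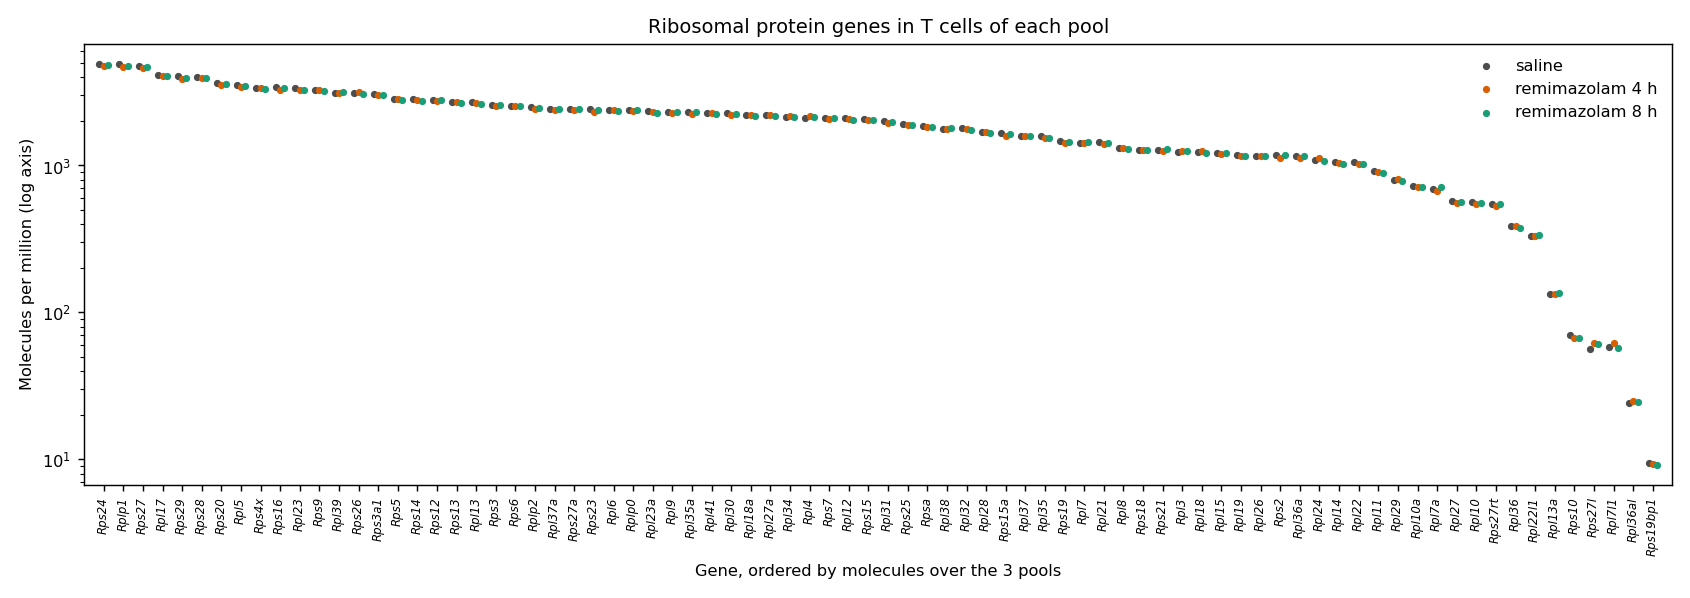
CPM (log axis) of ribosomal protein genes in T cells, ordered by abundance, with 1 point per pool (saline, remimazolam 4 h, remimazolam 8 h); members with almost no molecules and a few others are not drawn. The 3 points of a gene nearly coincide, while the genes span from 4903 (Rps24, saline) to under 10 (Rps19bp1).

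The median member was at 1924 CPM, and 78 of the 86 had at least 3000 molecules over the 3 pools. The 8 under that minimum were Rps10 (2903 molecules), the p53 target Rps27l (2555), Rpl7l1 (2521), Rpl36al (1049), Rps19bp1 (398), Rpl39l (61), Rpl10l (3) and Rpl3l (1). Rpl10l, Rpl3l and Rpl39l are paralogs known from testis or muscle, and 3 molecules in a pool of T cells correspond to 0.209 to 0.215 CPM. Rpl10l at 0, 1 and 2 molecules and Rpl3l at 0, 1 and 0 therefore lie at or under that floor. Rps10 and the large-subunit gene Rpl13a (132.5, 134.3 and 135.8 CPM) were the low members among the core proteins. For Rps10, 78.6% of the 3′ stretches were shared, mostly with the annotated readthrough gene RPS10-NUDT3. The 1 transcript used for Rpl13a, of 1047 bases, shared none, which does not show whether reads from other transcripts of the gene were shared. A symbol named as its pseudogene, Rpl13a-ps1, was at 146.0, 157.0 and 147.0. Rpl10, on the X chromosome, was at 560.1, 546.5 and 555.6 and Rpl10-ps3, with which all of its stretches are shared, at 286.3, 288.2 and 292.9. How shared reads were assigned is not known here, and its part in the levels of Rps10, Rpl10 and Rpl13a was not tested. The 8 pseudogene symbols in the table held 44987 molecules in T cells.

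In T cells of the saline pool 16.56% of molecules came from the members, at 4 h 16.30% and at 8 h 16.39%. The share at 4 h was 0.984 times that of saline (exact 95% interval 0.982 to 0.986), at 8 h 0.990 times (0.988 to 0.991), and at 8 h 1.006 times that at 4 h (1.004 to 1.007). Both remimazolam pools are set against the same saline pool, so the first pair of ratios is not independent. The intervals are conditional binomial and cover counting error only, not differences between mice. With the mix of clusters held as in all pools together, the ratios were 0.994 at 4 h and 0.999 at 8 h. The median mitochondrial share of T cells was 9.80%, 9.76% and 9.96%, and the 10 B cell markers, all with molecules, summed to 635.0, 1203 and 654.6 CPM. The part of the cell mix, the B cell transcripts or the depth in these differences was not tested.

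No member with at least 3000 molecules differed from saline by a factor of 1.1 or more, at 4 h or at 8 h, or between the remimazolam pools. Among all 2558 genes with that many molecules, 5.98% passed this factor at 4 h against saline, 3.36% at 8 h against saline and 5.08% at 8 h against 4 h. At 4 h 13 of the 78 members lay above saline and 65 below, where 49.7% of all genes were lower. At 8 h 17 of 78 lay above saline, with 52.4% of all genes lower, and 48 of 78 were higher at 8 h than at 4 h, with 53.4% of all genes lower at 8 h. The median log2 ratio of the members was -0.02 at 4 h and -0.01 at 8 h, against medians of 0.00 and -0.00 over all genes. Member log2 ratios ran from -0.07 to 0.04 at 4 h and from -0.05 to 0.05 at 8 h.

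The members at the ends of these ranges were as follows. At 4 h Rps2, which lines the messenger RNA entry channel, was lowest against saline, with 1175 CPM in saline, 1117 at 4 h and 1179 at 8 h, a ratio of 0.951 (0.930 to 0.972) at 4 h. The next lowest ratios at 4 h were those of Rplp1 (0.954), Rps16 (0.957), near the P site of the small subunit, and Rpl27 (0.958). Among the highest at 4 h were Rpl24 at 1.028 (1.005 to 1.051), a large-subunit protein that bridges to the small subunit, the tunnel protein gene Rpl4 at 1.019 and Rpl13a at 1.013. Rpl24 stood at 1090 CPM in saline, 1120 at 4 h and 1076 at 8 h, so the 8 h pool lay on the other side of saline.

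At 8 h the lowest ratios to saline belonged to Rpl36 (0.963), Rpl12 (0.969), a protein of the stalk base, Rpl35 (0.971) at the tunnel exit and Rps26 (0.971) at the messenger RNA exit. The highest were Rpl7a at 1.037 (1.008 to 1.066), Rpl13a (1.025, 0.961 to 1.093), Rps21 (1.023) and Rpl7 (1.015). Rpl7a stood at 688.8 CPM in saline, 675.1 at 4 h and 714.0 at 8 h. Between the remimazolam pools the highest ratios of 8 h to 4 h were Rpl7a (1.058), Rps2 (1.055), the X-linked Rpl36a (1.035) and Rps21 (1.031), and the lowest Rpl24 (0.960), Rpl36 (0.967), Rps26 (0.969) and Rpl29 (0.971). Rps2 and Rpl24 differed between the remimazolam pools by more than either 8 h value differed from saline.

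Of the 24 ratios that the naming rule picked here, 9 moved outside their counting interval when only the CD4 conventional-like class was used, 2 with the mix of clusters held fixed and 1 with TMM factors. In the CD4 conventional-like class the ratio of 4 h to saline was 0.913 for Rps2 and 0.924 for Rpl27, both further from 1 than in all T cells. For Rplp1 and Rps16 it was closer to 1, at 0.966 and 0.971 in that class and at 0.968 and 0.972 with the mix held fixed, while Rplp1 was at 0.943 with TMM factors. The ratio of 8 h to 4 h in the same class was 1.08 for Rps2, 1.09 for Rpl36a, 0.953 for Rps26 and 0.997 for Rpl29.

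**Figure D2:**
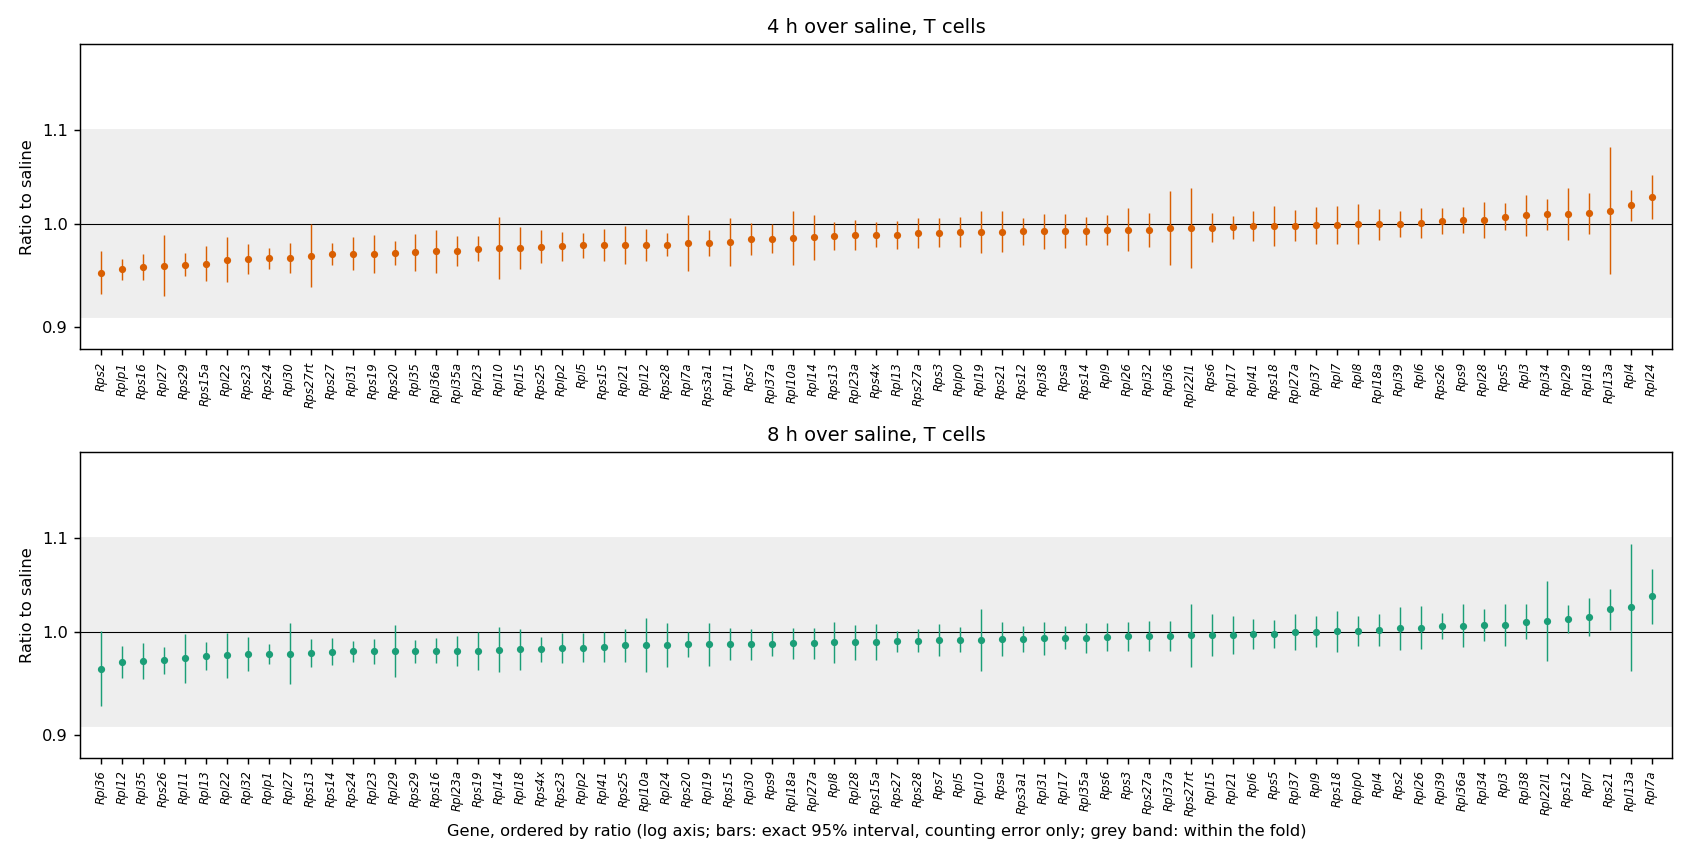
Ratio of CPM to the saline pool (log axis) for members with at least 3000 molecules, a few of which are not drawn, at 4 h (upper) and 8 h (lower), with exact 95% intervals for counting error and a grey band for ratios within a factor of 1.1. Every point lies inside the band, and most at 4 h lie under 1.

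Genes outside the name rule and other translation genes were set beside the members. Fau was at 1895, 1931 and 1851 CPM and Rack1, a scaffold on the small subunit, at 1304, 1280 and 1279. None of the 8 elongation genes with at least 3000 molecules (of 11 listed) and none of the 16 ribosome biogenesis genes (of 40) passed a factor of 1.1 against saline at either time. Of the 30 initiation genes measured (of 32) 1 was past it at 4 h, Eif3d, at 76.4, 86.5 and 75.5 CPM, and of the 7 mitochondrial ribosomal protein genes measured (of 77) 1, Mrpl9, at 76.2, 64.6 and 70.8. Of the 8 TOP and mTORC1 regulators measured (of 15), 2 were lower by that factor at 4 h. Ddit4, an inhibitor of mTORC1 induced by stress and glucocorticoids, was at 216.9 CPM in saline, 156.9 at 4 h and 146.0 at 8 h, ratios of 0.723 (0.685 to 0.764) and 0.673 (0.636 to 0.712). Myc, a transcription factor that drives ribosome production, was at 93.7, 81.7 and 91.4, a ratio of 0.872 (0.806 to 0.945) at 4 h. Ddit4 was thus lower in both remimazolam pools, and Myc past a factor of 1.1 at 4 h but not at 8 h.

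The share ranged more widely between cell classes than between the pools of all T cells. Classes were Leiden clusters named from marker genes, built without ribosomal protein genes among the variable genes, and their shares are described with no test. CD8 memory-like cells (Ly6c2, Cxcr3, Eomes) had the highest share, 20.03%, 20.04% and 19.93% in the saline, 4 h and 8 h pools. CD8-like cells had 18.09%, 18.02% and 18.01%, and CD4 conventional-like cells 16.67%, 16.42% and 16.58%. The pools of these 3 classes did not overlap with each other.

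In the middle of the order, interferon-response cells (Ifit1, Isg15) had 16.82%, 16.32% and 16.01%, cells with Egr and Nr4a genes of recent stimulation 15.59%, 15.28% and 15.56%, and cells with Myb and Sox4 14.94%, 16.12% and 15.49%. The first overlapped with CD4 conventional-like cells and the last with both of the others, so these were not ranked. Gamma delta-like cells had 13.48%, 13.35% and 13.81%, regulatory T-like cells (Foxp3, Il2ra, Ctla4) 12.75%, 13.32% and 13.31%, and cycling cells (Mki67, Top2a) 12.92%, 12.10% and 12.78%. The cycling cells, 122 in all, had a median of 9195 molecules each, the largest of any class, and yet a share in the lower part of the order.

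The lowest T cell classes were natural killer T-like cells, at 12.42%, 11.48% and 11.61%, and CD4 memory-like cells (Itgb1, Maf, S100a4), at 11.27%, 11.67% and 11.69%. These overlapped. Averaged over pools, the ratio between the highest and the lowest T cell class was 1.73. B-like cells had 11.62%, 12.94% and 11.92%. Myeloid-like cells had 8.50%, 6.74% and 7.84%, from 9, 20 and 13 cells, and neutrophil-like cells 2.34%, 2.84% and 2.83%, from 5, 13 and 4 cells.

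**Figure D3:**
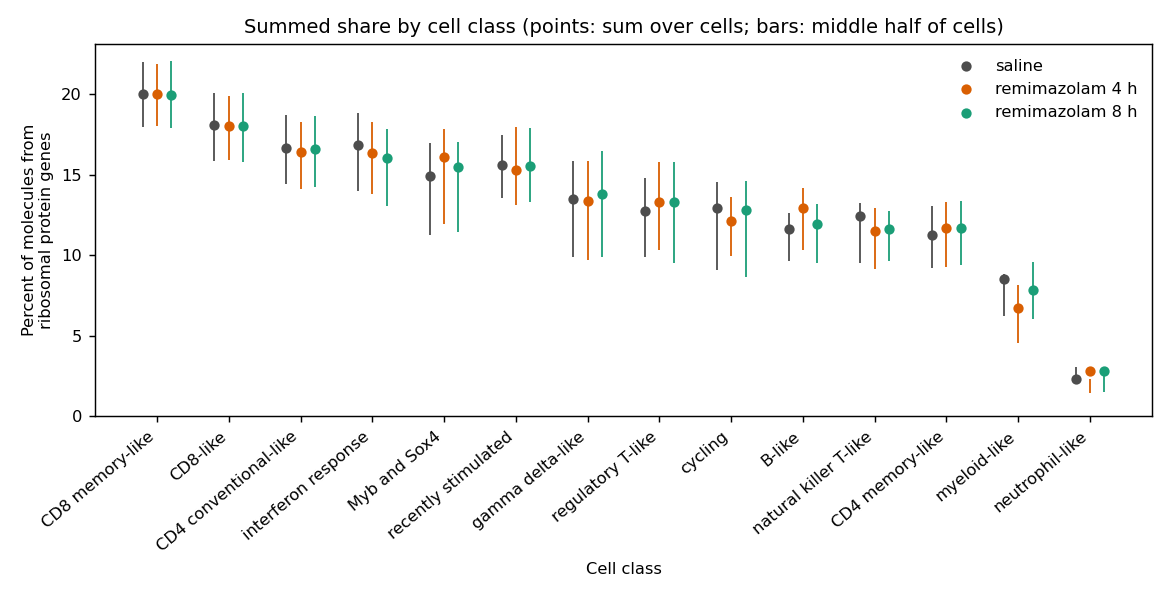
Percent of molecules from ribosomal protein genes in each cell class, with 1 point per pool for the sum over cells and a bar for the middle 50% of cells. Points of 1 class lie close together over the 3 pools, from 20.03% in CD8 memory-like cells to 2.34% in neutrophil-like cells (saline).

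Depth and mitochondrial share moved with the family's share from cell to cell. In the lowest of 4 groups of T cells by molecules per cell the members gave 14.96% of molecules, and in the next 3 groups of equal size 15.98%, 16.81% and 17.01%. Across 4 such groups by mitochondrial share, from the lowest, the values were 14.41%, 16.65%, 17.26% and 17.47%. CD8 memory-like cells had a median of 3624 molecules and CD4 memory-like cells 2516. With each cell thinned to 1500 molecules the ratio of the highest to the lowest T cell class was 1.74, and with mitochondrial molecules left out of the total 1.75; in the thinned data the lowest class was natural killer T-like.

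For a test, T cells were gated by marker molecules rather than by cluster, and molecules were summed per gate and pool. The gates were CD4 S100a4- (Cd4 with no Cd8a, Cd8b1 or Foxp3), the CD4 S100a4+ cells beside it, Foxp3+ (no Cd8a or Cd8b1), and CD8 cells (Cd8a or Cd8b1, no Cd4 or Foxp3) without and with Ccl5. S100a4 and Ccl5 mark antigen-experienced CD4 and CD8 cells, and Foxp3 is the factor that defines regulatory T cells. A gate needs only 1 molecule of its marker, so cells in which the marker was missed fall in the negative gates. Ccl5 was detected in 56.0% of CD8 memory-like cells and Foxp3 in 70.9% of regulatory T-like cells. The CD4 S100a4+ gate held 140 cells, and the CD4 memory-like class 691, of which 81.0% had Cd4. The negative gates are therefore not purely naive cells. The members' share over all pools was 15.8% in CD4 S100a4-, 10.9% in CD4 S100a4+, 12.9% in Foxp3+, 17.9% in CD8 Ccl5- and 18.5% in CD8 Ccl5+ cells. Gate contrasts used edgeR's quasi-likelihood test with the pool as a block and Benjamini-Hochberg adjustment over 8971 genes. The 3 pools serve as replicates although they differ in treatment, so the p-values measure spread between these pools. Of the 86 members 83 passed the filter on low counts; Rpl39l, Rpl10l and Rpl3l did not. The CD4 S100a4- gate is the reference of 3 of the 4 contrasts, so these are not independent.

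In CD8 Ccl5- cells nearly the whole family was higher than in CD4 S100a4- cells. Of 83 members 79 were higher at an adjusted p under 0.05 and none was lower, where 12.8% of all genes tested were higher and 12.6% lower. The median log2 fold change was 0.25 over the members and -0.00 over all genes. All 43 large-subunit genes, 30 of 31 small-subunit genes, the 3 stalk genes and 3 of 5 paralogs tested rose. The 4 that did not pass were Rps29 (0.07), Rpl7l1 (0.13), Rps19bp1 (0.17) and Rpl36al (0.18).

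Rpl32, a large-subunit protein, had 2008, 2008 and 1978 CPM in CD8 Ccl5- cells of the saline, 4 h and 8 h pools and 1642, 1597 and 1571 in CD4 S100a4- cells. The lowest CD8 value exceeded the highest CD4 value, and the log2 fold change was 0.38 (SD of the pools' log2 ratios 0.02, n = 3 pools, edgeR adjusted p = 2.13e-12). Rpl4 followed at 0.37, with 2419, 2434 and 2415 in CD8 against 1932, 1991 and 1962 in CD4 cells, again without overlap. Rpl37 (0.36) and Rpl23a (0.35), which sits at the tunnel exit, were also among the 5 largest. The smallest called changes included Rpl19 (0.12), the retrogene Rps27rt (0.13), Rpl29 (0.13) and Rps16 (0.14).

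Rpl19 stood at 1225, 1224 and 1199 CPM in CD8 Ccl5- cells and at 1176, 1175 and 1157 in CD4 S100a4- cells, so the groups separated by a narrow margin (edgeR adjusted p = 0.0189, SD 0.004, n = 3 pools). Without any 1 of the 3 pools, under DESeq2 and with library size alone, Rpl19 no longer passed. Rps27rt lost its call without any 1 pool, and Rpl29 without the 4 h or the 8 h pool. With library sizes alone, without TMM scaling factors, the median member log2 fold change was 0.19 and 829 genes of the table were higher and 1615 lower, against 1147 and 1127 in the fit with TMM, and 70 members were still called. B cell markers summed to 402.8 to 423.5 CPM in CD8 Ccl5- cells and to 437.6 to 1094 in CD4 S100a4- cells, with all 10 detected in each, and medians of molecules per cell were 2659 to 2688 and 2377 to 2433; their part in the result was not tested.

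Other translation genes were counted in the same contrast. Rack1 (0.34) and Fau (0.19) both rose. Of 11 elongation genes 10 rose, among them Eef1a1, which delivers aminoacyl-tRNA, with 8644, 8657 and 8655 CPM in CD8 Ccl5- cells and 7670, 7545 and 7701 in CD4 S100a4- cells (log2 fold change 0.25, edgeR adjusted p = 7.24e-09). Of 40 ribosome biogenesis genes 17 rose and 1 fell (Polr1a, -0.33), with the nucleolar chaperone Npm1 at 0.27 and the rRNA methyltransferase Fbl at 0.43. Of 32 initiation genes 10 rose and none fell. Among mTORC1 and TOP regulators 3 of 14 tested rose and 1 fell: Myc rose by 0.56, from 86.0, 66.9 and 70.1 CPM in CD4 S100a4- cells to 109.3, 96.4 and 108.3, Larp1 rose by 0.27 and Larp4 by 0.26, and Ddit4 fell by 0.33. Mitochondrial ribosomal proteins, encoded by another gene family, had 7 of 77 higher and 2 lower.

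In Foxp3+ cells the family was lower than in CD4 S100a4- cells. Of 83 members 72 fell and 1 rose, where 9.51% of all genes tested were lower and 12.0% higher. The median log2 fold change was -0.30 over the members and -0.01 over all genes. Unlike the reference, the Foxp3+ gate kept S100a4+ cells, 12.0% of its cells over all pools. Their share was 9.80%, that of Foxp3+ S100a4- cells 13.5% and that of CD4 S100a4- cells 15.8%. The part of the S100a4+ cells in this contrast was not tested. Large-subunit genes fell in 38 of 43 cases (median -0.24), small-subunit genes in 29 of 31 (median -0.32), the 3 stalk genes in every case (median -0.47) and paralogs in 2 of 5.

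Rps29 fell most: 2797, 2764 and 2676 CPM in Foxp3+ cells of the saline, 4 h and 8 h pools, against 4177, 4028 and 4117 in CD4 S100a4- cells. The groups were far apart, with a log2 fold change of -0.63 (SD 0.04, n = 3 pools, edgeR adjusted p = 2.51e-19). Rps29 was thus lowest here while it was among the 4 members that did not pass in the CD8 contrast. Rpl12 of the stalk base, whose start window is printed above, had 1452, 1460 and 1454 in Foxp3+ cells and 2119, 2091 and 2061 in CD4 S100a4- cells (-0.58, SD 0.03). Rplp1 had 3138, 3338 and 3298 against 4677, 4537 and 4625 (-0.55, SD 0.07), and its partners Rplp2 and Rplp0 fell by 0.47 and 0.42 on the log2 scale. Rpl5 (-0.55), part of the 5S particle, and Rps21 (-0.54) completed the 5 largest falls; Rpl11, the partner of Rpl5 in that particle, fell by 0.17.

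The smallest called falls were Rps15a (-0.14), Rpl18 (-0.15), Rps13 (-0.15) and Rpl15 (-0.15), and each lost its call without the saline pool; Rps15a and Rpl18 also without the 4 h pool, and Rps15a and Rpl15 without the 8 h pool. Core members that did not pass included Rps10 (-0.34), Rpl36 (-0.15), Rpl37 (-0.12), Rpl22 (-0.10), Rpl24 (-0.02) and Rpl13a (0.05). Rpl24 had 973.2, 1090 and 1083 CPM in Foxp3+ cells and 1040, 1040 and 1010 in CD4 S100a4- cells, so the groups overlapped, and its edgeR adjusted p was 0.811. The member that rose was Rps27l, a paralog of Rps27 known as a p53 target, at 82.5, 95.1 and 81.4 CPM in Foxp3+ cells against 51.5, 51.2 and 56.0 (log2 fold change 0.65, SD 0.18, n = 3 pools, edgeR adjusted p = 0.000383). Its parent Rps27 went the other way, from 4672, 4660 and 4755 in CD4 S100a4- cells to 3570, 3333 and 3545 in Foxp3+ cells (-0.48).

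Beside the members, Rack1 (-0.35) and Fau (-0.22) fell, and so did 5 of 11 elongation genes, Eef1a1 (-0.29), Eef1b2 (-0.37), Eef1g (-0.38), Eef2 (-0.22) and Tpt1 (-0.46), with none higher. Of the biogenesis genes 11 of 40 fell and none rose, with Npm1 at -0.25. Of the 32 initiation genes 5 fell, the helicase gene Eif4a2 by 0.56 and Eif1, Eif3a, Eif4g1 and Eif5 by 0.14 to 0.26, and 2 rose, Eif5a by 0.37 and Eif4h by 0.29. Of the TOP and mTORC1 regulators 2 of 14 rose, Sesn1 by 0.46 and Akt1 by 0.36, and 2 fell, Rps6kb1 by 0.48 and Sesn3 by 0.26. Myc did not pass (0.15, edgeR adjusted p = 0.5005), at 89.8, 84.5 and 81.4 CPM in Foxp3+ and 86.0, 66.9 and 70.1 in CD4 S100a4- cells. Median molecules per cell were 2314.5 to 2358 in Foxp3+ and 2377 to 2433 in CD4 S100a4- cells, B cell markers 757.0 to 955.3 and 437.6 to 1094 CPM with all 10 detected, and mitochondrial shares 8.48% to 8.93% and 9.72% to 9.98%; their part was not tested.

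CD4 S100a4+ cells showed the largest difference of the 4 contrasts in the median member, from few cells: 33, 58 and 49 in the saline, 4 h and 8 h pools, against 1783, 1705 and 1863 in the S100a4- gate. Of 83 members 74 fell and 2 rose, where 8.58% of all genes tested were lower and 10.5% higher. The median log2 fold change was -0.58 over the members and -0.05 over all genes. By role, 39 of 43 large-subunit genes (median -0.55), 30 of 31 small-subunit genes (median -0.63) and the 3 stalk genes (median -0.76) fell.

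Rps24, the most abundant member, had 2453, 2763 and 2447 CPM in CD4 S100a4+ cells and 4800, 4625 and 4785 in CD4 S100a4- cells. The highest S100a4+ value was far under the lowest S100a4- value, with a log2 fold change of -0.95 (SD 0.16, n = 3 pools, edgeR adjusted p = 1.17e-19). The retrogene Rps27rt fell by a like amount (-0.95, SD 0.36), from 541.4, 536.3 and 550.8 to 231.1, 254.9 and 374.2, with Rps27, from which it is copied and with which it shares 91.1% of its 3′ stretches, at -0.82. Rps19 (-0.93), a Diamond-Blackfan anaemia gene, Rps16 (-0.90) and Rps20 (-0.89) were the next. All 5 of the largest falls belong to the small subunit or copy one of its genes. Rplp1 (-0.78), Rplp2 (-0.76) and Rplp0 (-0.42) of the stalk fell unequally.

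The smallest called falls were Rpl41 (-0.16), which encodes a very short peptide, and Rpsa (-0.22), which also encodes the laminin receptor. Rpl41 lost its call without any 1 pool and under DESeq2, and Rpsa without the 8 h pool. Rpl29 (-0.05), Rpl28 (-0.15), Rpl24 (-0.20) and Rps10 (-0.84) did not pass, nor did Rpl7l1, Rpl36al and Rps19bp1. The members that rose were Rpl13a and Rps27l. Rpl13a, a large-subunit protein that can also act off the ribosome as a translation inhibitor, had 216.2, 249.7 and 171.9 CPM in CD4 S100a4+ cells against 128.7, 119.0 and 121.2 (0.72, SD 0.30, n = 3 pools, edgeR adjusted p = 0.000611). Without the 4 h pool Rpl13a had a log2 fold change of 0.53 and an edgeR adjusted p of 0.0698. Rps27l had 89.5, 83.2 and 101.1 against 51.5, 51.2 and 56.0 (0.72, SD 0.06, n = 3 pools, edgeR adjusted p = 0.0257), and lost its call without any 1 pool. With cells thinned to 1500 molecules neither rise passed, while 71 of 82 members tested fell.

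Among other genes of this contrast, Rack1 (-0.43), Fau (-0.30), Eef1a1 (-0.38), Eef1b2 (-0.67) and Tpt1 (-0.73) fell. Elongation genes had 5 of 11 lower and none higher, and biogenesis genes 13 of 40 lower, with Npm1 at -0.57, and 1 higher (Polr1d, 0.57). Of the TOP and mTORC1 regulators 4 of 14 fell and 1 rose: Myc fell by 2.16, from 86.0, 66.9 and 70.1 to 14.9, 5.20 and 30.3 CPM, Larp1 by 0.59, Sesn1 by 1.53 and Sesn3 by 0.44, and Akt1 rose by 0.69. The S100a4+ gate held 134130, 192204 and 197766 molecules in the saline, 4 h and 8 h pools. Its values for Myc and for Sesn1 (7.455, 26.0 and 60.7 CPM) therefore rest on few molecules. Mitochondrial ribosomal proteins had 3 of 77 higher and 1 lower. Median molecules per cell were 2827 to 3268 in the S100a4+ gate, above the 2377 to 2433 of the S100a4- gate, and mitochondrial shares 8.31% to 8.84% against 9.72% to 9.98%. Of the 8 myeloid markers 2 to 4 were detected in the S100a4+ gate by pool, with Csf1r, Adgre1 and Cd68 at 0, summing to 136.5 to 171.5 CPM against 88.2 to 92.3. Of the 10 B cell markers 3 to 5 were detected, with Cd79a, Ms4a1 and H2-Aa at 0. The part of depth and mitochondrial share in the result was not tested.

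Within CD8 cells the contrast between the Ccl5+ and Ccl5- gates was small. Against CD8 Ccl5- cells, Ccl5+ cells had 25 of 83 members higher and 1 lower, where 7.88% of all genes tested were higher and 5.36% lower. The median log2 fold change was 0.09 over the members and -0.01 over all genes. By role, 15 of 43 large-subunit genes, 9 of 31 small-subunit genes and 1 of 3 stalk genes (Rplp0, 0.13) rose.

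Rpl29 rose most: 994.9, 1038 and 944.4 CPM in CD8 Ccl5+ cells of the saline, 4 h and 8 h pools against 801.2, 825.2 and 800.0 in CD8 Ccl5- cells. No value overlapped, and the log2 fold change was 0.33 (SD 0.06, n = 3 pools, edgeR adjusted p = 1.96e-07). Rps12 had 3652, 3704 and 3597 against 2966, 2967 and 3074 (0.31, SD 0.06), again without overlap. Rpl27 (0.23) and the X-linked Rpl39 (0.18), which lies in the exit tunnel, were also among the 5 largest, and Rpl38 (0.13), Rps15a (0.12), Rpl6 (0.12) and Rpl23 (0.10) were the smallest called rises.

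The count in this contrast depended on the fit. Without the saline pool 20 members were called, and without the 4 h or the 8 h pool 16 each. With the CD8 memory-like and CD8-like clusters in place of the gates, 73 members were higher. The median log2 fold change over the members was then 0.21, against 0.09 with the gates. In that same setting the CD8 against CD4 contrast had a median of 0.18. The small size thus holds for the gates and not for the clusters. Rpl23 and Rps15a lost their calls without any 1 pool, and Rpl6 and Rpl38 without the 4 h or the 8 h pool. No elongation gene passed here (of 11), 1 of 40 biogenesis genes rose (Npm1, 0.18) and 1 fell (Tcof1, -0.25). Median molecules per cell were 3443.5 to 3564.5 in Ccl5+ and 2659 to 2688 in Ccl5- cells, and natural killer markers summed to 253.4 to 493.6 and 43.4 to 51.6 CPM, Ncr1 being at 0 in 2 of 3 pools of the Ccl5+ gate and in all 3 of the Ccl5- gate; their part was not tested.

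**Figure D4:**
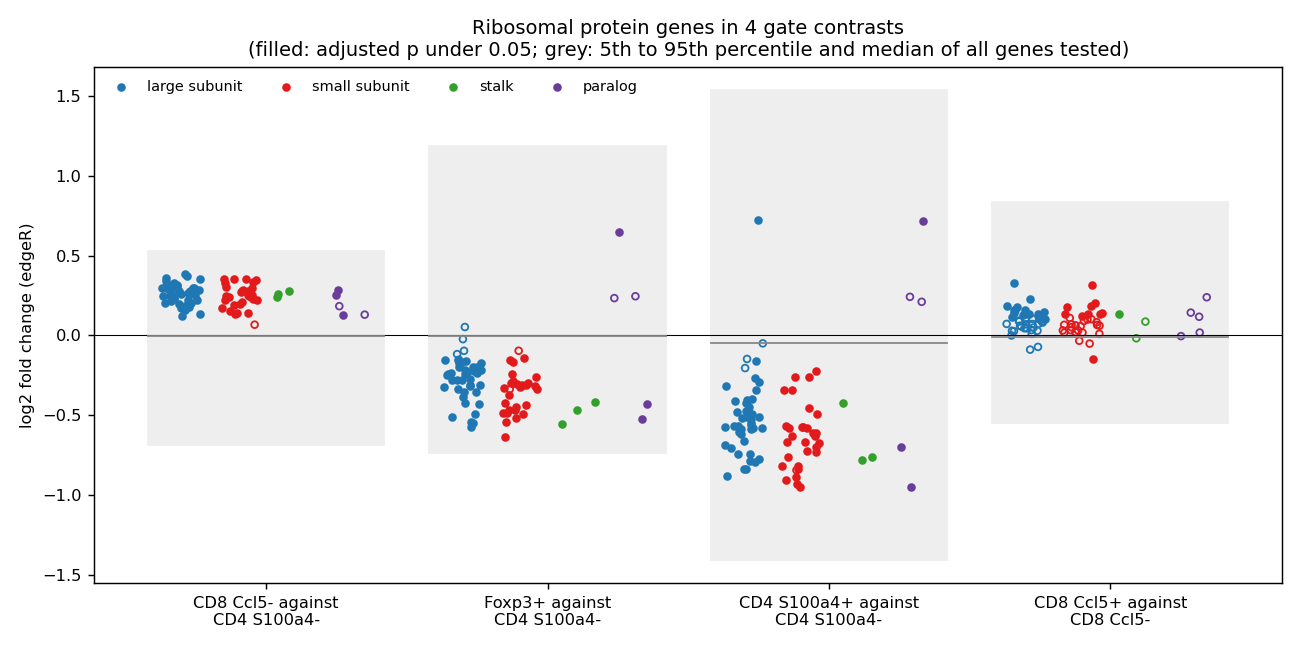
Log2 fold change of each member tested, except Rps19bp1, in the 4 gate contrasts, by role, filled where the edgeR adjusted p is under 0.05, over a grey band from the 5th to the 95th percentile of all genes tested with their median as a line. Members sit together above the median in CD8 Ccl5- cells (79 called) and below it in Foxp3+ (72 called lower) and CD4 S100a4+ cells (74 called lower), inside the band of all genes.

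Pairs of parent and paralog were set side by side. Rpl22, a protein needed for the development of alpha beta T cells, was at 1054, 1016 and 1029 CPM in T cells and Rpl22l1 at 330.3, 328.9 and 334.0. In Foxp3+ cells Rpl22l1 fell by 0.43 while Rpl22 (-0.10, edgeR adjusted p = 0.176) did not pass, and in CD4 S100a4+ cells the falls were 0.70 and 0.26; the difference between the 2 genes was not tested. Rps27l was at 56.6, 62.1 and 61.1 against 4738, 4594 and 4692 for Rps27. Rpl7l1 (58.1, 62.0 and 57.2) did not pass in any of the 4 contrasts, while Rpl7 (1418, 1416 and 1439) rose in CD8 Ccl5- cells (0.21) and fell in Foxp3+ (-0.19) and CD4 S100a4+ cells (-0.42). Rpl36al (24.2, 24.9 and 24.6) did not pass in any contrast, and the X-linked Rpl36a (1157, 1125 and 1164) passed in each, at 0.31 in CD8 Ccl5-, -0.28 in Foxp3+, -0.83 in CD4 S100a4+ and 0.16 in CD8 Ccl5+ cells. Rpl7l1 and Rpl36al held 2521 and 1049 molecules in T cells, against 60719 for Rpl7 and 48952 for Rpl36a. A change of the same size passes less readily at lower counts, and the differences between these genes were not tested.

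The other X-linked members were Rps4x, Rpl39 and Rpl10. Rpl39, at 3131, 3130 and 3149 CPM in T cells, changed by 0.25 in CD8 Ccl5- cells, -0.21 in Foxp3+ cells and -0.56 in CD4 S100a4+ cells; Rps4x by 0.22, -0.37 and -0.70; and Rpl10 by 0.20, -0.38 and -0.58, all past the threshold. The Rpl39 paralog Rpl39l was at 1.64, 1.60 and 1.049, and Rpl3, which reaches the peptidyl transferase centre, at 1243, 1253 and 1251. Rps27a, the ubiquitin fusion within the name rule, was at 2420, 2397 and 2409, and changed by 0.25, -0.26 and -0.61 in the same 3 contrasts.

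Members with and without a pyrimidine run at the annotated start did not part in these contrasts. The annotated start can lie several bases from the start used, so members without a run here may still carry the TOP motif. The split therefore cannot tell whether the motif matters. The 24 members with a run had median log2 fold changes of 0.25 in CD8 Ccl5-, -0.30 in Foxp3+, -0.57 in CD4 S100a4+ and 0.10 in CD8 Ccl5+ cells, and the 39 tested members without one 0.25, -0.30, -0.57 and 0.08. Members with under 50% of their 3′ stretches shared with another gene (38 tested) had medians of 0.24, -0.31, -0.58 and 0.08, and those with 50% or more (45) 0.26, -0.30, -0.57 and 0.09.

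**Figure D5:**
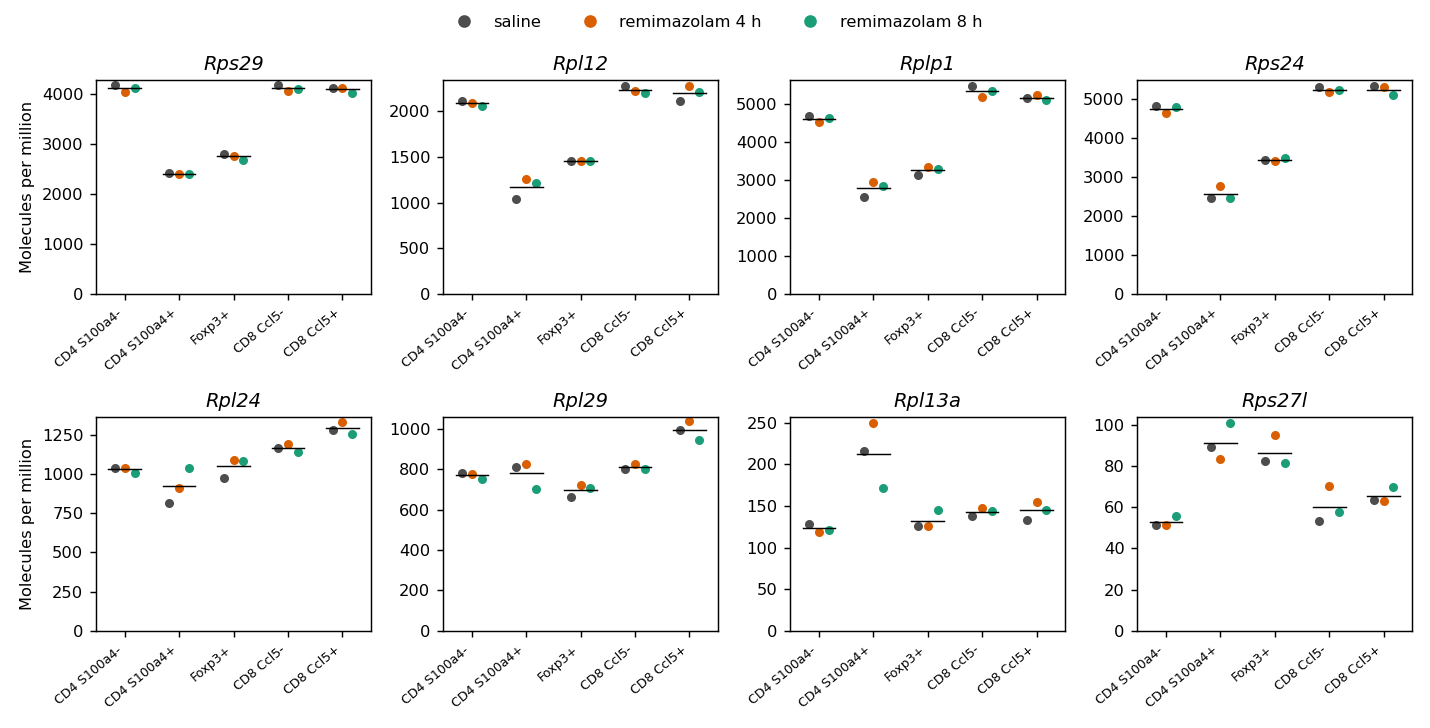
CPM of 8 members in the 5 gates, with 1 point per pool and a line at the mean of the 3 pools; each axis starts at 0. Rps29, Rpl12, Rplp1 and Rps24 are lower in the CD4 S100a4+ and Foxp3+ gates than in the CD4 S100a4- gate in every pool, Rpl24 overlaps between the CD4 S100a4- and Foxp3+ gates, and Rpl13a and Rps27l are higher in the CD4 S100a4+ than in the CD4 S100a4- gate.

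Within gates, members above saline were counted, with no test. In CD4 S100a4- cells 14 of 77 members with at least 3000 molecules in the gate were higher than saline at 4 h (49.9% of all such genes) and 20 of 77 at 8 h (47.9%). In CD8 Ccl5- cells it was 35 of 77 at 4 h (50.4%) and 31 of 77 at 8 h (48.9%). In CD8 Ccl5+ cells it was 47 of 69 (56.4%) and 33 of 69 (51.1%). Members make up 69 of the 133 genes behind that background, and of the other 64 genes 28 were higher at 4 h and 35 at 8 h. In Foxp3+ cells it was 33 of 40 (57.9%) and 34 of 40 (73.7%). Members make up 40 of the 76 genes behind the Foxp3+ background, and of the other 36 genes 11 were higher at 4 h and 22 at 8 h. Higher than saline by a factor of at least 1.1 were 11 of the 40 members at 4 h (17.1% of all 76 genes) and 4 of 40 at 8 h (5.26%). The members' share in Foxp3+ cells was 12.47%, 13.14% and 13.08%, and in CD4 S100a4- cells 15.93%, 15.60% and 15.75%. Foxp3+ cells numbered 213, 236 and 245. Rps29, which differed most between these gates, was at 2797, 2764 and 2676 CPM in Foxp3+ cells, so it did not follow the share. In CD4 S100a4+ cells the share was 10.61%, 11.11% and 10.79%, the saline value resting on 33 cells.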

How the data were processed

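One capture of 3 tagged pools was analysed. The counts of molecules per cell and gene were deposited by the authors; per the file headers they come from BD's Rhapsody WTA Multiplex software, release 1.9.1, with GRCm38 and GENCODE M19. Neither the aligner nor the handling of reads that match several genes is given in the sources used here. The authors' recursive error correction removed 10.5% of the members' raw molecules and 9.27% of all, and the deposited tag calls give each cell's pool. The members and gene lists were chosen with earlier results of these data known.

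Cells with at least 200 genes and at most 25% mitochondrial molecules were kept; multiplets called by the authors were left out and no doublet caller was run within a pool. Clusters came from scanpy 1.11.5 (2000 variable genes, 30 components, 15 neighbours, Leiden resolution 1.0). Pools were compared by CPM with exact 95% intervals (scipy 1.17.1), which cover counting error only. Gate contrasts used edgeR 4.0.16 quasi-likelihood tests with TMM factors and the pool as a block (R 4.3.3), since gates of 1 pool come from the same 3 mice; calls are at an adjusted p under 0.05. The main fit was also run on simulated counts, with changes in the CD8 Ccl5- gate only and no difference between pools. Only the CD8 against CD4 contrast was read there, so the simulation does not cover the other contrasts or pools that differ in treatment. Alternatives were DESeq2 1.42.0, other scalings, filters, thinning, clusters in place of gates, and leaving out each pool. T cells held 13983750, 14351460 and 14299215 molecules in the saline, 4 h and 8 h pools, so 3 counts equal 0.209 to 0.215 CPM. Named members are the 10 most abundant, the 4 at each end of each treatment comparison, the 5 called at each end of each gate contrast, listed paralog pairs, stalk, X-linked and ubiquitin-fusion genes, and members under 3000 molecules. Some genes that these rules name are not reported here.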

Additional observations from a re-analysis of the deposited data

Results flagged for a closer look

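The members' share moved in opposite directions after remimazolam in 2 gates. In Foxp3+ cells it was 1.054 times the saline share at 4 h and 1.049 times at 8 h, and in CD4 S100a4- cells 0.979 times at 4 h and 0.989 times at 8 h. The ratios at 4 h and 8 h were 1.047 (1.025 to 1.069) and 1.017 (0.996 to 1.039) in CD4 S100a4+ cells. They were 1.017 (1.011 to 1.024) and 0.993 in CD8 Ccl5+ cells, and 0.993 and 0.997 in CD8 Ccl5- cells. A rise at 4 h was thus not particular to Foxp3+ cells. Both remimazolam pools are set against 1 saline pool, each ratio rests on 1 pool a treatment, and the difference between the gates was not tested.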

How the results depend on the processing

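No treatment ratio has a test, and 1 pool a treatment is the main limit. The share ratio of 4 h to saline was 0.973 with TMM factors, 0.980 with scaling to molecules outside ribosomal protein and mitochondrial genes and 0.994 with the cluster mix held fixed; that of 8 h to saline was 0.999 with the mix fixed and 0.995 in conventional CD4 cells; that of 8 h to 4 h was 1.016 with TMM, 1.010 with the outside scaling, 1.002 with cells weighted equally and 1.010 in conventional CD4 cells. Each kept its side of 1. With a smaller factor, a 5% difference, 1 member passed at 4 h against saline and 2 at 8 h against 4 h. In the Foxp3+ gate the share ratio turned among S100a4+ cells, to 0.897 at 4 h (29 cells against 26) and 0.870 at 8 h (28 against 26), and was 1.076 and 1.064 among S100a4- cells, a split chosen after seeing the data. Without the replicate block, the counts of members called were 79 (CD8 against CD4), 73 (Foxp3+), 78 (CD4 S100a4+) and 24 (CD8 Ccl5+), against 79, 73, 76 and 26 with it. For CD8 Ccl5+ the count was 16 with no filter on low counts (13 higher, 3 lower), 42 with only those gates in the fit, 73 with named clusters, and 16 to 20 leaving out 1 pool. Leaving out 1 pool gave 73 to 77, 62 to 73 and 71 to 72 in the other contrasts. With named clusters 68 members were higher in CD8 against CD4, with a median log2 fold change of 0.18 against 0.25 with gates. In the same setting 76 members were lower and 1 higher in Foxp3+, and 77 lower and 2 higher in CD4 S100a4+. The cause of these changes was not tested. DESeq2 called 77, 73, 75 and 38 members.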
